A study of Mus musculus with 12 samples.

Results

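The genes described here are 36 genes of sterol and fatty acid synthesis and of its control, chosen by symbol and found by their Ensembl identifiers among the 55471 genes of the deposited count table. They comprise 18 sterol enzymes, 9 fatty acid enzymes, 6 regulators and 3 targets of the liver X receptors (LXR). All 36 were among the 17197 genes that passed the filter on low counts. Total RNA of Ba/F3 cells was sequenced. Ba/F3 is a pro-B line of the mouse whose growth needs interleukin-3 (IL-3) or an oncogene in its place. The SFPQ-ABL1 lines expressed a fusion of SFPQ to ABL1, a tyrosine kinase, and the BCR-ABL1 lines its fusion to BCR, both without IL-3. The MSCV lines held an empty retroviral vector and were kept in 0.5 ng/ml murine IL-3. Each group had 4 lines that the labels call biologically independent, harvested in exponential growth with no further treatment. In both comparisons with MSCV the fusion and the absence of IL-3 cannot be told apart, and both comparisons use the same MSCV lines.

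Cells make cholesterol from acetyl-CoA through mevalonate, isoprenoid diphosphates, squalene and lanosterol, and they make fatty acids from the same acetyl-CoA. The transcription factors SREBP-1 and SREBP-2, encoded by Srebf1 and Srebf2, switch on most of these enzymes after the escort protein SCAP has carried them from the endoplasmic reticulum to the Golgi, and the INSIG proteins hold SCAP back when sterols are plentiful. LXR, activated by oxidised sterols, instead switches on genes for sterol export and for the removal of lipoprotein receptors.

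BCR-ABL1 lines had lower levels of most of these genes than both other groups. Against MSCV, 21 of the 36 genes fell, 1 rose and 14 did not pass the test, while 32.1% of all genes tested were called in that comparison, 16.3% lower and 15.8% higher. Their median log2 fold change was -0.46, beside -0.01 over all genes tested. In SFPQ-ABL1 against MSCV, 2 of the 36 genes rose and 0 fell, beside 1.79% of all genes called, 0.814% higher and 0.977% lower. Against BCR-ABL1, 23 genes were higher in SFPQ-ABL1 and 1 was lower, beside 26% of all genes called, 13.2% higher and 12.8% lower. Their median log2 fold change was 0.62 in that comparison and 0.05 in SFPQ-ABL1 against MSCV. In SFPQ-ABL1 against MSCV 9 of the 36 genes were higher and 3 lower at an unadjusted p under 0.05, beside 3194 of all 17197 genes in either direction. DESeq2 called 4 of the 36 higher and 0 lower there, beside 535 higher and 596 lower of 15513 genes with an adjusted p. In these counts a call is an adjusted p under 0.05 in edgeR's quasi-likelihood test, two-sided, with Benjamini-Hochberg adjustment over all 17197 genes, and every adjusted p below comes from that test.

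**Figure D1:**
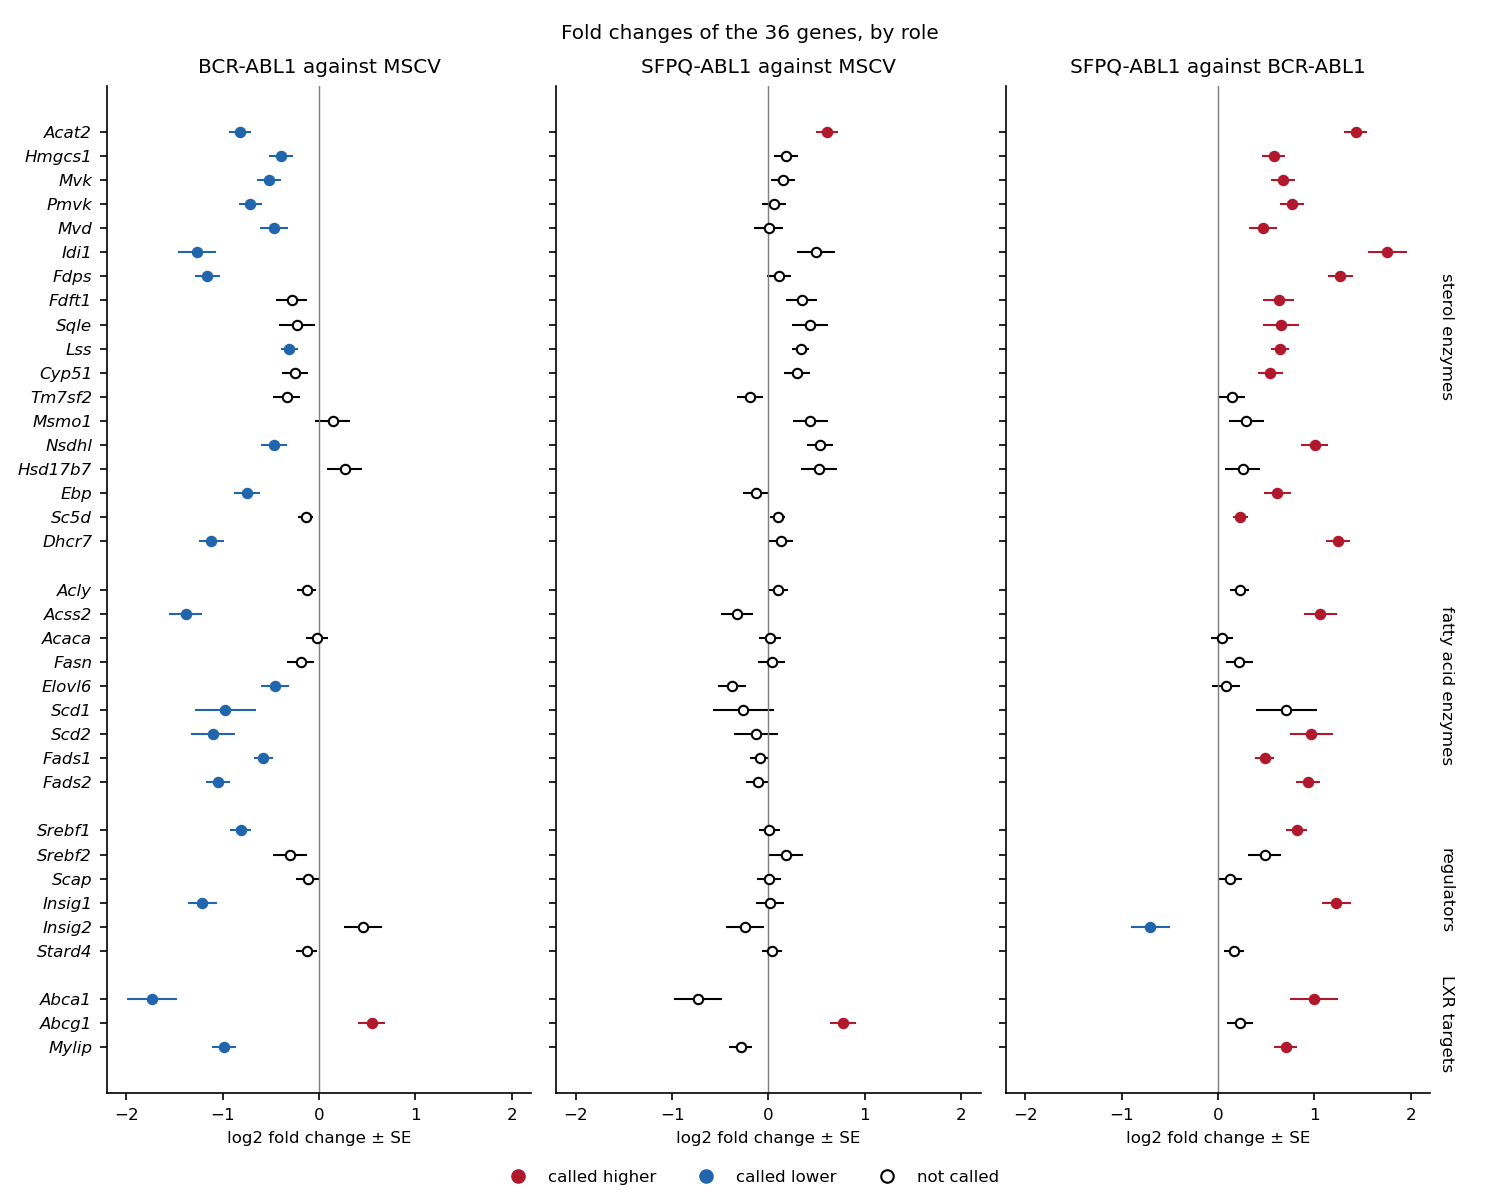
Log2 fold change (x axis, ± SE) of each of the 36 genes (y axis, grouped by role, sterol and fatty acid enzymes in pathway order) in the 3 comparisons; filled points passed the test. Most points of BCR-ABL1 against MSCV lie left of 0, those of SFPQ-ABL1 against MSCV lie around 0, and 35 of 36 points of SFPQ-ABL1 against BCR-ABL1 lie right of 0.

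The gene totals ran from 59355018 to 80616227 counts per library. Without normalization factors, 210 genes were higher and 114 lower in SFPQ-ABL1 against MSCV, in place of 140 and 168, and 2841 were higher and 1750 lower in SFPQ-ABL1 against BCR-ABL1, in place of 2268 and 2203. As a check of the labels, exon 9 of the Abl1 transcript Abl1-201 had 4.36 to 26.8 CPM (scaled by gene totals) in SFPQ-ABL1 lines, 9.23 to 20.8 in BCR-ABL1 lines and at most 0.053 in MSCV lines. SFPQ-ABL1 line 2 had the 4.36 while its sister lines had 17.8 or more, and BCR-ABL1 line 4 had the 20.8 while its sister lines had 11.8 or less. With both of these libraries left out, 22 of the 36 genes fell and 1 rose in BCR-ABL1 against MSCV, 3 rose and 1 fell in SFPQ-ABL1 against MSCV, and 23 were higher and 1 lower in SFPQ-ABL1 against BCR-ABL1. Of 11 genes that mark pro-B cells, 8 were below 0.2 CPM in every group, Pax5, Ebf1 and both Rag genes among them, and Il7r had 0 counts. The pro-B list summed to 85.1 to 98.6 CPM in SFPQ-ABL1 lines, 49.1 to 71.9 CPM in BCR-ABL1 lines and 130.4 to 152 CPM in MSCV lines, and its 3 tested genes were all lower in BCR-ABL1 than in MSCV. Of these, Vpreb1 was near 0, with 0.0607 to 0.0959 CPM in BCR-ABL1 lines and 0.0926 to 0.336 CPM in MSCV lines, which overlapped. The list of 11 granulocyte and monocyte genes summed to 585 to 906 CPM in SFPQ-ABL1 lines, 245 to 436 CPM in BCR-ABL1 lines and 525 to 1206 CPM in MSCV lines, with Ly6c2 at 0 counts, and 4 of its 8 tested genes were lower and 1 higher in BCR-ABL1 than in MSCV. The 9 mast and basophil genes summed to 809 to 1371 CPM in SFPQ-ABL1 lines, 1342 to 1587 CPM in BCR-ABL1 lines and 1361 to 1666 CPM in MSCV lines, with Tpsb2 at 0 counts, and 2 of 5 tested (Ms4a2 and Cma1) were lower and 1 (Cpa3) higher in BCR-ABL1 than in MSCV. Gata2 made up most of these sums, with means of 955, 1445 and 1524.5 CPM in SFPQ-ABL1, BCR-ABL1 and MSCV. Kit and Mcpt8 were below 0.2 CPM in every line. Cpa3 had 0.876 to 42.2 CPM in BCR-ABL1 lines and at most 0.365 CPM in MSCV lines. The 5 genes of lipid handling in macrophages summed to 20.6 to 110.4 CPM in SFPQ-ABL1 lines, 39.8 to 160.3 CPM in BCR-ABL1 lines and 24.6 to 52.4 CPM in MSCV lines, with Msr1 at 0 counts, and neither of the 2 tested was called. Between the fusions, all 3 tested pro-B genes and 4 of 8 tested granulocyte and monocyte genes were higher in SFPQ-ABL1, and 0 were lower. Of the mast and basophil genes 1 was higher and 2 were lower there, beside 26% of all genes called. In SFPQ-ABL1 against MSCV, Cd79a and Gata2 were lower and Mpo was higher. The part of these markers in the results below was not tested, and in bulk RNA fewer cells of a type and less RNA per cell cannot be told apart.

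The sterol enzymes up to farnesyl diphosphate, the branch point to isoprenoids, were all 7 lower in BCR-ABL1 than in MSCV, with a median log2 fold change of -0.71, and all 7 higher in SFPQ-ABL1 than in BCR-ABL1, with a median of 0.77. Acat2 (ENSMUSG00000023832, chr17:12942890-12960747, minus strand, mm10), the cytosolic thiolase that joins acetyl-CoA units, had 67.2, 55.4, 69.03 and 64.4 CPM in SFPQ-ABL1 lines 1 to 4, 28.6, 20.7, 21.9 and 24.04 in BCR-ABL1 lines and 47.5, 40.5, 38.3 and 41.8 in MSCV lines. No line of any group overlapped a line of another, in the order SFPQ-ABL1, MSCV, BCR-ABL1. The log2 fold change ± SE was -0.82 ± 0.11 (adjusted p = 0.000227) in BCR-ABL1 against MSCV. SFPQ-ABL1 lines differed from MSCV by 0.61 ± 0.11 (adjusted p = 0.0244) and from BCR-ABL1 by 1.43 ± 0.12 (adjusted p = 3e-05). Acat2 was the only one of the 36 genes called in all 3 comparisons. Its rise in SFPQ-ABL1 against MSCV was not called without MSCV line 2, 3 or 4 or without SFPQ-ABL1 line 1, 3 or 4, with adjusted p between 0.0605 and 0.078. Acat3, a near-identical neighbour with which Acat2 can share reads, had 3.40 to 4.68 CPM in SFPQ-ABL1 lines, 1.48 to 1.76 CPM in BCR-ABL1 lines and 2.10 to 3.11 CPM in MSCV lines, the same order at a far lower level.

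Idi1 (ENSMUSG00000058258, chr13:8885501-8892451, plus strand), the isomerase of isopentenyl diphosphate, had 112, 92.3, 88.7 and 76.1 CPM in SFPQ-ABL1 lines 1 to 4, 30.04, 26.98, 28.4 and 23.8 in BCR-ABL1 lines and 90.8, 68.4, 63.5 and 39.6 in MSCV lines. All BCR-ABL1 lines lay below all other lines, while the MSCV lines spread widely and overlapped the SFPQ-ABL1 lines. Its log2 fold change was -1.26 ± 0.20 (adjusted p = 0.000516) in BCR-ABL1 against MSCV. It was 0.49 ± 0.20 (adjusted p = 0.204) for SFPQ-ABL1 over MSCV and 1.76 ± 0.20 (adjusted p = 0.000152) for SFPQ-ABL1 over BCR-ABL1, the widest difference between both fusions among the 36 genes. Its copy Idi2, which could take some of its reads, stayed below 1 CPM in every line. Fdps (ENSMUSG00000059743, chr3:89093588-89101959, minus strand), the synthase of farnesyl diphosphate, had 14.9, 10.4, 15.1 and 12.7 CPM in SFPQ-ABL1 lines 1 to 4, 5.82, 5.43, 5.299 and 5.47 in BCR-ABL1 lines and 11.5, 13.1, 13.2 and 11.4 in MSCV lines. The BCR-ABL1 lines lay within 5.30 and 5.82 CPM, below every other line. Fdps differed by -1.16 ± 0.13 (adjusted p = 5.45e-05) in BCR-ABL1 against MSCV, by 0.11 ± 0.13 (adjusted p = 0.688) in SFPQ-ABL1 against MSCV and by 1.27 ± 0.13 (adjusted p = 9.24e-05) between the fusions, here and below SFPQ-ABL1 over BCR-ABL1. Fdps shares 26.7% of its exon bases with Gm43738 on the same strand, which had 0.123 CPM or less in every line, and reads of Fdps pseudogenes cannot be told apart here.

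The steps between thiolase and isomerase had smaller log2 fold changes. Hmgcs1, the cytosolic HMG-CoA synthase, had 107, 84.8, 93.3 and 93.7 CPM in SFPQ-ABL1 lines 1 to 4, 60.9, 69.2, 51.2 and 72.6 in BCR-ABL1 lines and 97.6, 71.6, 80.2 and 83.5 in MSCV lines. BCR-ABL1 and MSCV lines overlapped, BCR-ABL1 line 4 lying above MSCV line 2, whereas every SFPQ-ABL1 line lay above every BCR-ABL1 line. The log2 fold change was -0.39 ± 0.12 (adjusted p = 0.0275) in BCR-ABL1 against MSCV and 0.58 ± 0.12 (adjusted p = 0.0047) in SFPQ-ABL1 against BCR-ABL1. Mvk, mevalonate kinase, had 20.7, 17.98, 18.8 and 17.7 CPM in SFPQ-ABL1 lines 1 to 4, 12.1, 10.5, 13.4 and 11.2 in BCR-ABL1 lines and 15.7, 21.1, 15.9 and 14.9 in MSCV lines, with log2 fold changes of -0.52 ± 0.13 (adjusted p = 0.00692) and 0.67 ± 0.13 (adjusted p = 0.00219) in the same comparisons. Pmvk, phosphomevalonate kinase, had 39.5, 43.3, 37.9 and 38.2 CPM in SFPQ-ABL1 lines 1 to 4, 24.4, 22.8, 27.3 and 18.9 in BCR-ABL1 lines and 36.7, 46.2, 36.5 and 33.7 in MSCV lines, with -0.71 ± 0.12 (adjusted p = 0.000925) against MSCV and 0.77 ± 0.12 (adjusted p = 0.000915) between the fusions. Both kinases were lower in every BCR-ABL1 line than in every line of both other groups. Mvd, the decarboxylase of mevalonate diphosphate, had 35.4, 27.8, 43.4 and 39.8 CPM in SFPQ-ABL1 lines 1 to 4, 26.9, 20.9, 29.2 and 29.1 in BCR-ABL1 lines and 37.8, 30.6, 38.8 and 39.1 in MSCV lines. Its BCR-ABL1 lines lay below the MSCV lines but overlapped the SFPQ-ABL1 lines through SFPQ-ABL1 line 2, and the log2 fold changes were -0.46 ± 0.15 (adjusted p = 0.0283) against MSCV and 0.46 ± 0.15 (adjusted p = 0.0334) between the fusions. In SFPQ-ABL1 against MSCV these 4 genes had log2 fold changes between 0.00 and 0.18, with adjusted p from 0.446 to 0.998. The fall of Hmgcs1 in BCR-ABL1 was not called without BCR-ABL1 line 1 or 3 or MSCV line 1 or 4 (adjusted p 0.0529 to 0.0898). That of Mvd was not called without BCR-ABL1 line 2 or MSCV line 1, 3 or 4 (0.06 to 0.0794). The difference of Mvd between both fusions was not called without SFPQ-ABL1 line 1, 3 or 4, nor without BCR-ABL1 line 1 or 2 (0.0538 to 0.112).

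**Figure D2:**
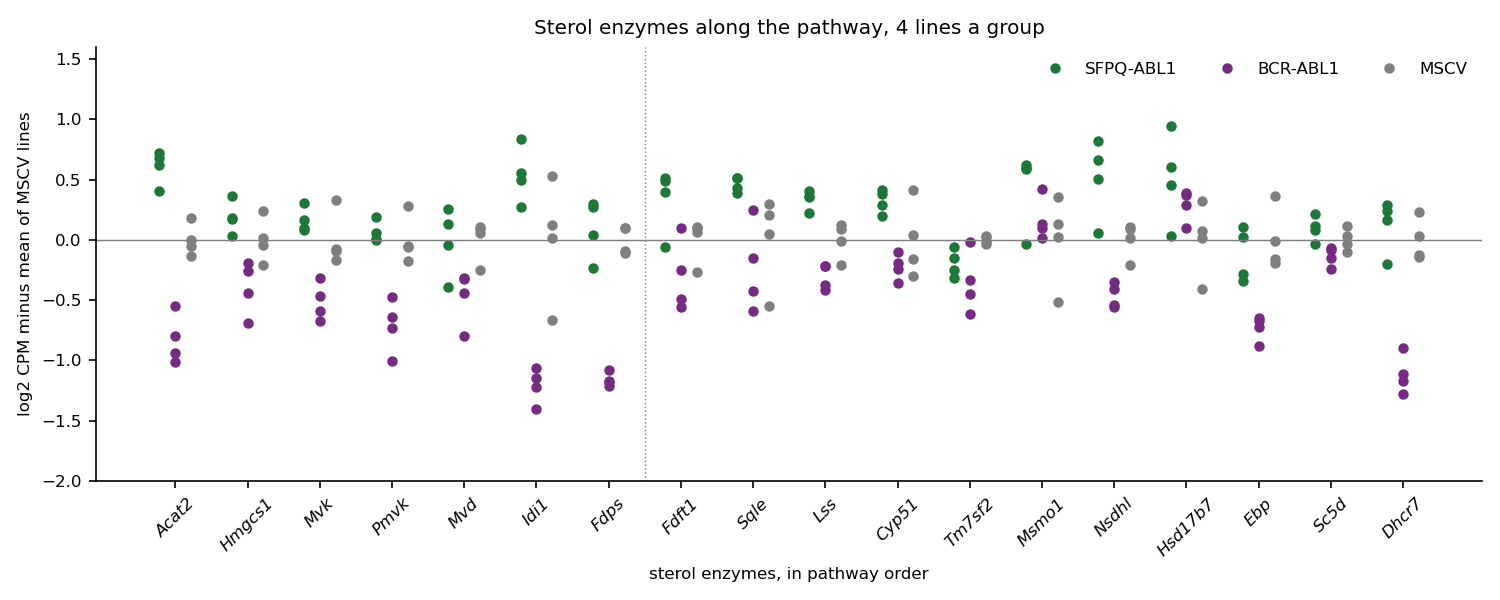
Level of the 18 sterol enzymes in each line (y axis, log2 CPM minus the mean of the MSCV lines), in pathway order (x axis), with the dotted line after farnesyl diphosphate. Left of it the BCR-ABL1 points lie below 0 for all 7 genes; right of it they are mixed, with Dhcr7 lowest.

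Promoter sequences were available for 28 of the 36 genes in the RefSeq table of build GRCm38.p6, and the 250 bases before each start were searched on both strands for TCACNCCAC, written after the sterol regulatory element, and for CCAAT, the box bound by NF-Y. TCACNCCAC was found in 1 of 28 genes, Hmgcs1, beside 1.22% of the 27025 genes in the table. CCAAT was found in 14 of 15 sterol enzymes, 2 of 6 fatty acid enzymes, 4 of 5 regulators and 1 of 2 LXR targets, beside 37.5% of all genes. A gene with several starts has several windows: per window the match was in 14 of 18, 2 of 6, 5 of 10 and 1 of 2 in the same order of roles, beside 33.8% of all 32851 windows. Any base may stand at N, and in Hmgcs1 no match of one motif overlaps a match of the other. The windows of 4 sterol enzymes that were lower in BCR-ABL1 are printed 5′ to 3′ on the strand of the gene, motif matches in capitals, because they show the range: Hmgcs1 holds both motifs, Idi1 and Mvd hold CCAAT alone, and Acat2, called in all 3 comparisons, holds neither.
Hmgcs1, chr13:119690101-119690350, plus strand: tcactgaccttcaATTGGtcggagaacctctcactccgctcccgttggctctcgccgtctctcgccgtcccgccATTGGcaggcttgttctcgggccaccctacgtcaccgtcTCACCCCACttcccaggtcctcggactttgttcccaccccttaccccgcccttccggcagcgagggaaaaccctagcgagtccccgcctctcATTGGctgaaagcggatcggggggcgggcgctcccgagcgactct
Idi1, chr13:8885356-8885605, plus strand: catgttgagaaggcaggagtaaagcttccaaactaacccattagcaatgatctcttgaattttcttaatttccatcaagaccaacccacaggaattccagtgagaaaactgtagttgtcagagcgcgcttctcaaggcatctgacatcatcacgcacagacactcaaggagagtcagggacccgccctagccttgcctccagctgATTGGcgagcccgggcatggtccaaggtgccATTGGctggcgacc
Mvd, chr8:122443423-122443672, minus strand: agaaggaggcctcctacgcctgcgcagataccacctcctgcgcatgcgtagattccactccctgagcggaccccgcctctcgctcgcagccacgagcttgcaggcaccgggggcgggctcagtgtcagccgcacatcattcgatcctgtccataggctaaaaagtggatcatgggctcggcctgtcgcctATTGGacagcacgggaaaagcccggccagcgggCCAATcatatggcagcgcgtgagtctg
Acat2, chr17:12960726-12960975, minus strand: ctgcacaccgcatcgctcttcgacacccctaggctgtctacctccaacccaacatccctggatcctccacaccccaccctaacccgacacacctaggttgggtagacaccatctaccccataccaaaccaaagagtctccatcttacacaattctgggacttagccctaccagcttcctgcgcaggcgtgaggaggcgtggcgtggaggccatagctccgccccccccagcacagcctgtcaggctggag
The single TCACNCCAC of Hmgcs1 begins 137 bases before the start, and its 3 CCAAT matches begin 237, 176 and 45 bases before it. In Idi1 the matches begin 45 and 14 bases before the start, and in Mvd 60 and 27 bases before it. A match is a description of these letters and not a site of binding. Fdps, Fdft1, Sqle, Scd1, Scd2, Fads1, Stard4 and Abcg1 had no entry in the table.

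From squalene synthase on, 4 of 11 enzymes (36.4%) fell in BCR-ABL1 against MSCV, with a median log2 fold change of -0.28 over the 11. Of all genes, 32.1% were called there, 16.3% lower and 15.8% higher. Between the fusions 8 of 11 (72.7%) were higher in SFPQ-ABL1, with a median of 0.62, beside 26% of all genes called, 13.2% higher. Leaving out BCR-ABL1 line 3, MSCV line 1 or MSCV line 4, 2 of these 4 falls (Dhcr7 and Ebp) were called. Over all 18 sterol enzymes 7 of the 11 falls were called without MSCV line 1 or without MSCV line 4. Dhcr7 (ENSMUSG00000058454, chr7:143823145-143848410, plus strand), the reductase that makes cholesterol from its last precursor, had 44.9, 33.2, 42.7 and 46.6 CPM in SFPQ-ABL1 lines 1 to 4, 20.4, 15.7, 17.7 and 16.9 in BCR-ABL1 lines and 44.8, 34.9, 34.5 and 38.97 in MSCV lines. Every BCR-ABL1 line lay below every other line, and SFPQ-ABL1 and MSCV lines overlapped. Its log2 fold change was -1.12 ± 0.13 (adjusted p = 6.46e-05) in BCR-ABL1 against MSCV. For SFPQ-ABL1 the log2 fold change was 0.13 ± 0.13 (adjusted p = 0.625) over MSCV and 1.24 ± 0.13 (adjusted p = 9.24e-05) over BCR-ABL1. Ebp, the sterol isomerase, had 34.5, 32.5, 26.3 and 25.3 CPM in SFPQ-ABL1 lines 1 to 4, 20.1, 20.5, 19.4 and 17.5 in BCR-ABL1 lines and 31.9, 41.2, 28.7 and 28.1 in MSCV lines. It was likewise lower in all BCR-ABL1 lines, with -0.75 ± 0.14 (adjusted p = 0.00141) against MSCV and 0.62 ± 0.14 (adjusted p = 0.00614) between the fusions. Nsdhl, the dehydrogenase that helps to remove methyl groups from lanosterol, had 70.4, 41.6, 63.2 and 56.6 CPM in SFPQ-ABL1 lines 1 to 4, 29.99, 27.02, 27.4 and 31.3 in BCR-ABL1 lines and 42.8, 34.5, 40.3 and 42.3 in MSCV lines. Its groups were ordered SFPQ-ABL1, MSCV and BCR-ABL1, but SFPQ-ABL1 line 2 lay within the MSCV lines. The log2 fold change was -0.47 ± 0.14 (adjusted p = 0.0209) in BCR-ABL1 against MSCV and 1.0 ± 0.14 (adjusted p = 0.000385) in SFPQ-ABL1 against BCR-ABL1. For SFPQ-ABL1 over MSCV it was 0.54 ± 0.14 (adjusted p = 0.0675), and 0.66 (adjusted p = 0.00948) without SFPQ-ABL1 line 2. The fall of Nsdhl in BCR-ABL1 was not called without BCR-ABL1 line 2 or 3 or MSCV line 1 or 4 (adjusted p 0.0515 to 0.0565).

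Lss, lanosterol synthase, had 59.2, 53.9, 59.5 and 61.1 CPM in SFPQ-ABL1 lines 1 to 4, 34.6, 39.8, 35.7 and 39.6 in BCR-ABL1 lines and 50.4, 40.1, 45.9 and 49.1 in MSCV lines. No groups overlapped, and BCR-ABL1 differed from MSCV by -0.31 ± 0.09 (adjusted p = 0.0188) on the log2 scale. SFPQ-ABL1 differed from MSCV by 0.33 ± 0.09 (adjusted p = 0.0767) and from BCR-ABL1 by 0.64 ± 0.09 (adjusted p = 0.000403). Its fall in BCR-ABL1 was not called without BCR-ABL1 line 3 or MSCV line 1 or 4 (adjusted p 0.0529 to 0.0583). The 4 enzymes Fdft1, Sqle, Cyp51 and Sc5d passed the test between both fusions and in neither comparison with MSCV. Fdft1, squalene synthase, had 48.5, 35.3, 52.7 and 51.6 CPM in SFPQ-ABL1 lines 1 to 4, 26.3, 24.98, 31.00 and 39.5 in BCR-ABL1 lines and 39.4, 30.6, 38.5 and 39.7 in MSCV lines. BCR-ABL1 line 4 lay among the lines of both other groups, and the log2 fold change was 0.63 ± 0.16 (adjusted p = 0.0128) in SFPQ-ABL1 against BCR-ABL1 and -0.28 ± 0.16 (adjusted p = 0.197) in BCR-ABL1 against MSCV. Without BCR-ABL1 line 4 the change of Fdft1 against MSCV was -0.44 (adjusted p = 0.0492). Fdft1 shares 18.3% of its exon bases with Ctsb on the opposite strand, and the use of strand in counting is not given in the sources used here. Ctsb had means of 233, 191 and 322 CPM in SFPQ-ABL1, BCR-ABL1 and MSCV. Its log2 fold changes were -0.76 in BCR-ABL1 against MSCV, -0.47 in SFPQ-ABL1 against MSCV and 0.29 between the fusions, all called. On unshared exons the ratio of Fdft1 between the fusions was 1.32, beside 1.54 in the gene counts. The part of Ctsb reads in Fdft1 was not tested.

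Sqle, squalene epoxidase, had 147, 151, 159.97 and 159.7 CPM in SFPQ-ABL1 lines 1 to 4, 74.5, 101, 83.8 and 133 in BCR-ABL1 lines and 138, 76.5, 116 and 129 in MSCV lines. Each SFPQ-ABL1 line was above each line of both other groups, and the BCR-ABL1 and MSCV lines overlapped widely. On the log2 scale it differed by 0.65 ± 0.19 (adjusted p = 0.0218) in SFPQ-ABL1 against BCR-ABL1, and 0.43 ± 0.19 (adjusted p = 0.245) in SFPQ-ABL1 against MSCV. The first was not called without SFPQ-ABL1 line 3, BCR-ABL1 line 1 or BCR-ABL1 line 3 (adjusted p 0.055 to 0.0673). Cyp51, the lanosterol demethylase, had 81.9, 70.7, 75.03 and 79.98 CPM in SFPQ-ABL1 lines 1 to 4, 47.9, 53.9, 51.9 and 57.3 in BCR-ABL1 lines and 82.02, 50.02, 55.2 and 63.3 in MSCV lines. All BCR-ABL1 lines lay below all SFPQ-ABL1 lines, while the MSCV lines spanned both, and the log2 fold change between the fusions was 0.54 ± 0.13 (adjusted p = 0.00917). In SFPQ-ABL1 against MSCV it was 0.30 ± 0.13 (adjusted p = 0.25), and 0.46 (adjusted p = 0.0442) without MSCV line 1. Sc5d, a sterol desaturase, had 61.4, 55.3, 59.98 and 65.7 CPM in SFPQ-ABL1 lines 1 to 4, 51.04, 53.4, 47.9 and 54.03 in BCR-ABL1 lines and 55.2, 52.7, 57.8 and 61.3 in MSCV lines. Its difference between the fusions, 0.23 ± 0.08 (adjusted p = 0.0494), was the smallest one called and was not called with limma-voom (adjusted p = 0.0557) or with DESeq2 size factors in edgeR (0.0556). Leaving out any 1 library other than SFPQ-ABL1 line 2 or MSCV line 2 also ended the call (0.0513 to 0.137).

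Tm7sf2, Msmo1 and Hsd17b7, which reduce the sterol ring, oxidise its methyl groups and reduce its keto group, passed edgeR's test in no comparison. Tm7sf2 ranged over 5.91 to 7.07 CPM in SFPQ-ABL1 lines, 4.802 to 7.28 CPM in BCR-ABL1 lines and 7.18 to 7.52 CPM in MSCV lines, and the only groups apart were SFPQ-ABL1 and MSCV. In BCR-ABL1 against MSCV its log2 fold change was -0.34 ± 0.14 (adjusted p = 0.0799); it was called there with DESeq2 (-0.33, adjusted p = 0.0429) and without BCR-ABL1 line 1 (-0.47, adjusted p = 0.0165). Msmo1 ranged over 50.7 to 79.6 CPM in SFPQ-ABL1 lines, 52.4 to 69.4 CPM in BCR-ABL1 lines and 36.1 to 66.3 CPM in MSCV lines, and Hsd17b7 over 15.7 to 29.6 CPM in SFPQ-ABL1 lines, 16.5 to 20.1 CPM in BCR-ABL1 lines and 11.6 to 19.2 CPM in MSCV lines. Both had their lowest SFPQ-ABL1 and MSCV values in line 2 of each group. Line 2 was the lowest SFPQ-ABL1 line for 13 of the 18 sterol enzymes and the lowest MSCV line for 10 of them. In SFPQ-ABL1 against MSCV, 16 of 18 sterol enzymes had a log2 fold change above 0, with a median of 0.24. Of these 1 was called, 8 were higher at an unadjusted p under 0.05, and DESeq2 called 3. Over all 17197 genes 308 were called and 3194 had an unadjusted p under 0.05, in either direction, and DESeq2 called 1131 of 15513. The geometric mean of the 18 enzymes, as a share of the mean of the MSCV lines, was 129.9%, 103.8%, 123% and 119% in SFPQ-ABL1 lines 1 to 4. It was 72.7%, 68.6%, 71.1% and 74.0% in the BCR-ABL1 lines and 110.8%, 92.7%, 98.9% and 98.5% in the MSCV lines.

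**Figure D3:**
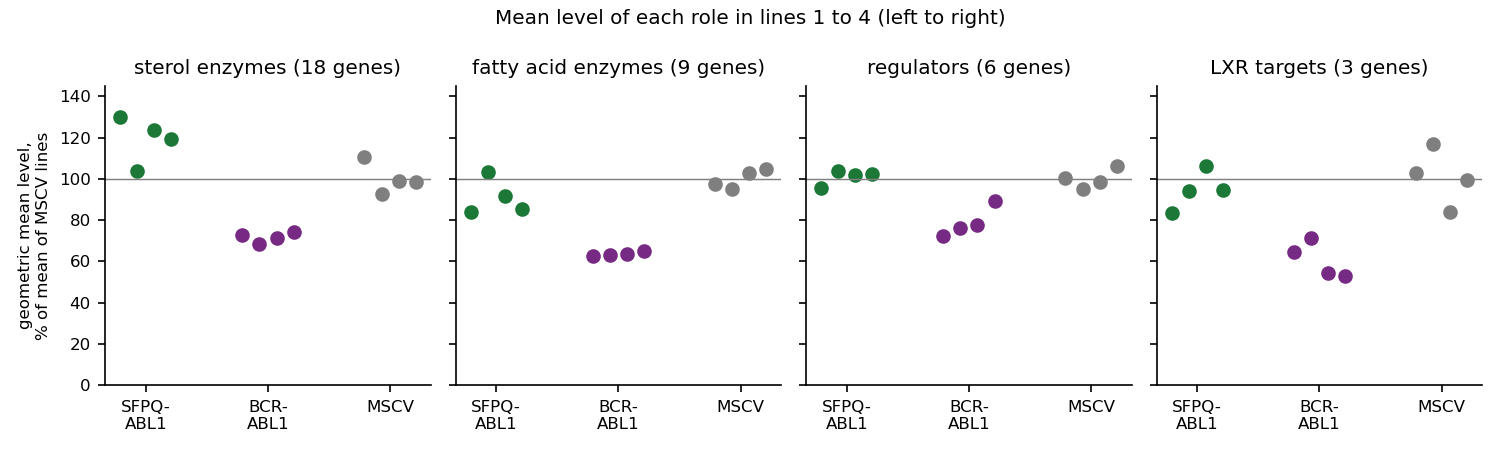
Geometric mean level of the genes of each role (y axis, percent of the mean of the MSCV lines) in lines 1 to 4 of each group (x axis). The BCR-ABL1 lines lie below the lines of both other groups in all 4 roles, at 62.4% to 65.1% for the fatty acid enzymes, and SFPQ-ABL1 lines 1, 3 and 4 lie highest for the sterol enzymes.

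Among the fatty acid enzymes, 6 of 9 fell in BCR-ABL1 against MSCV, beside 16.3% of all genes. Between the fusions 4 of 9 were higher in SFPQ-ABL1, beside 13.2% of all genes. The genes that moved were the supplier of acetyl-CoA from acetate, the desaturases and an elongase. The enzymes of the core route did not pass the test: Acly, which makes acetyl-CoA from citrate, Acaca, which makes malonyl-CoA, and Fasn, the fatty acid synthase. Acss2 (ENSMUSG00000027605, chr2:155517948-155585724, plus strand), the acetyl-CoA synthetase, had 123, 96.8, 155 and 126 CPM in SFPQ-ABL1 lines 1 to 4, 63.4, 50.02, 55.3 and 71.4 in BCR-ABL1 lines and 115, 157, 179.7 and 175 in MSCV lines. Every BCR-ABL1 line was below every other line, with a log2 fold change of -1.38 ± 0.17 (adjusted p = 9.69e-05) in BCR-ABL1 against MSCV. SFPQ-ABL1 lines differed from MSCV by -0.32 ± 0.17 (adjusted p = 0.318) and from BCR-ABL1 by 1.06 ± 0.17 (adjusted p = 0.000837). Acly ranged over 369 to 400.1 CPM in SFPQ-ABL1 lines, 285 to 375 CPM in BCR-ABL1 lines and 323 to 400.4 CPM in MSCV lines. Fasn ranged over 319.7 to 415 CPM in SFPQ-ABL1 lines, 284 to 348 CPM in BCR-ABL1 lines and 307 to 486 CPM in MSCV lines, and Acaca over 33.3 to 41.3 CPM in SFPQ-ABL1 lines, 34.3 to 37.7 CPM in BCR-ABL1 lines and 30.1 to 44.6 CPM in MSCV lines. All groups overlapped for these 3 genes, and their log2 fold changes lay between -0.19 and 0.23 over the 3 comparisons.

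Scd2 (ENSMUSG00000025203, chr19:44293674-44306864, plus strand), the stearoyl-CoA desaturase with the highest level per kilobase of exon of all 36 genes in every group, had 1146, 2578, 1617 and 1451 CPM in SFPQ-ABL1 lines 1 to 4, 667, 1155, 768 and 879.99 in BCR-ABL1 lines and 1575, 1836, 2114 and 1908 in MSCV lines. All BCR-ABL1 lines were below all MSCV lines, and BCR-ABL1 line 2 reached the level of SFPQ-ABL1 line 1. Scd2 had a log2 fold change of -1.10 ± 0.23 (adjusted p = 0.00273) in BCR-ABL1 against MSCV. It was -0.13 ± 0.22 (adjusted p = 0.799) for SFPQ-ABL1 over MSCV and 0.97 ± 0.23 (adjusted p = 0.0076) for SFPQ-ABL1 over BCR-ABL1. Its paralog Scd1 had the lowest level per kilobase of the 36 in every group, with 2.26, 6.39, 4.46 and 3.11 CPM in SFPQ-ABL1 lines 1 to 4, 1.604, 3.08, 2.38 and 2.87 in BCR-ABL1 lines and 4.56, 3.13, 6.17 and 5.602 in MSCV lines. The fall of Scd1 in BCR-ABL1, -0.97 ± 0.32 (adjusted p = 0.0339), was not called without BCR-ABL1 line 1, 3 or 4 or MSCV line 1, 3 or 4 (adjusted p 0.0502 to 0.0912). The levels per kilobase of Scd2 were 310.8, 158.8 and 340.1 CPM in SFPQ-ABL1, BCR-ABL1 and MSCV lines, against 0.83, 0.51 and 0.99 CPM for Scd1. Scd1, Scd2 and their neighbours Scd3 and Scd4 are similar in sequence, and reads may be split among them.

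Fads2 (ENSMUSG00000024665, chr19:10062765-10101746, minus strand), the desaturase that begins the synthesis of long polyunsaturated fatty acids, had 305, 308, 310.01 and 275 CPM in SFPQ-ABL1 lines 1 to 4, 170.1, 119, 165 and 173 in BCR-ABL1 lines and 271, 341, 334 and 349 in MSCV lines. BCR-ABL1 lines lay far below the lines of both other groups, which overlapped. Its log2 fold change was -1.05 ± 0.12 (adjusted p = 7.55e-05) in BCR-ABL1 against MSCV. For SFPQ-ABL1 the log2 fold change was -0.11 ± 0.12 (adjusted p = 0.661) over MSCV and 0.93 ± 0.12 (adjusted p = 0.000298) over BCR-ABL1. Fads1, the desaturase of a later step, had 315, 297, 338 and 308 CPM in SFPQ-ABL1 lines 1 to 4, 232, 184, 239.7 and 243 in BCR-ABL1 lines and 317, 317, 349 and 357 in MSCV lines. It followed the same order with a smaller difference, -0.58 ± 0.10 (adjusted p = 0.000768) and 0.49 ± 0.10 (adjusted p = 0.00314) in the comparisons of BCR-ABL1 with MSCV and of SFPQ-ABL1 with BCR-ABL1. Elovl6, the elongase of palmitate, had 69.3, 99.5, 67.2 and 61.3 CPM in SFPQ-ABL1 lines 1 to 4, 83.3, 68.4, 72.05 and 57.2 in BCR-ABL1 lines and 98.04, 94.9, 101 and 91.7 in MSCV lines. BCR-ABL1 lines were all below MSCV lines, and SFPQ-ABL1 line 2 alone reached the MSCV level. Its log2 fold change was -0.46 ± 0.14 (adjusted p = 0.0284) in BCR-ABL1 against MSCV, not called without BCR-ABL1 line 2, 3 or 4 or MSCV line 1 or 3 (adjusted p 0.0553 to 0.0839). In SFPQ-ABL1 against MSCV it was -0.38 ± 0.14 (adjusted p = 0.187), and -0.55 (adjusted p = 0.0252) without SFPQ-ABL1 line 2. Over the 9 fatty acid enzymes 0 were called in SFPQ-ABL1 against MSCV by edgeR's quasi-likelihood test, DESeq2 or limma-voom, and 1 was lower at an unadjusted p under 0.05.

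**Figure D4:**
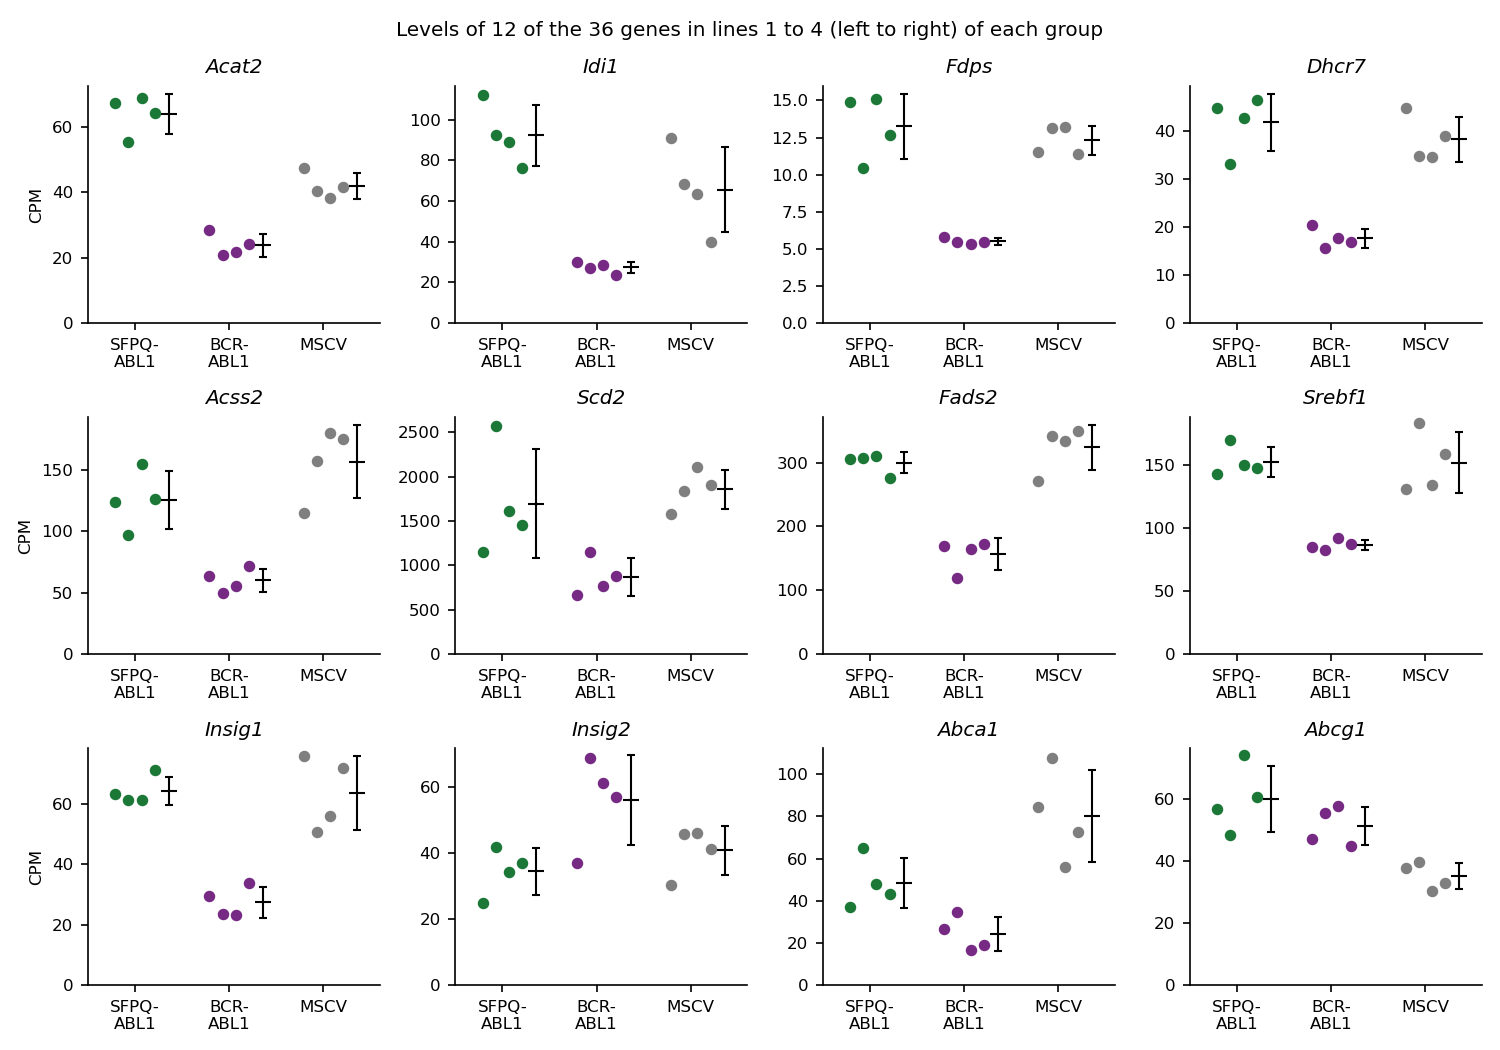
Level (y axis, CPM, from 0) of 12 of the 36 genes in each line of the 3 groups (x axis); black marks are the mean ± SD of 4 lines. BCR-ABL1 lines lie below all others for Acat2, Idi1, Fdps, Dhcr7, Acss2, Fads2, Srebf1, Insig1 and Abca1, and both fusion groups lie above MSCV for Abcg1.

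Among the 6 regulators, 2 fell in BCR-ABL1 against MSCV (33.3% called), near the 32.1% of all genes called there. Between the fusions 2 were higher and 1 lower in SFPQ-ABL1 (50% called), beside 26% of all genes. Srebf1 (ENSMUSG00000020538, chr11:60199089-60222581, minus strand) had 142, 169.6, 149.7 and 147 CPM in SFPQ-ABL1 lines 1 to 4, 84.6, 82.2, 91.8 and 87.01 in BCR-ABL1 lines and 130.4, 183, 134 and 158 in MSCV lines. Every BCR-ABL1 line was below every other line, and the log2 fold change was -0.81 ± 0.11 (adjusted p = 0.000166) in BCR-ABL1 against MSCV. SFPQ-ABL1 lines differed from MSCV by 0.01 ± 0.11 (adjusted p = 0.981) and from BCR-ABL1 by 0.82 ± 0.11 (adjusted p = 0.000303). Srebf2 had 295, 331, 337 and 342 CPM in SFPQ-ABL1 lines 1 to 4, 193, 212, 218 and 311 in BCR-ABL1 lines and 319.9, 193, 297 and 343 in MSCV lines. BCR-ABL1 lines 1 to 3 and MSCV line 2 were low, and BCR-ABL1 line 4 lay among the SFPQ-ABL1 lines. Srebf2 had a log2 fold change of -0.30 ± 0.18 (adjusted p = 0.204) in BCR-ABL1 against MSCV and 0.48 ± 0.18 (adjusted p = 0.0594) in SFPQ-ABL1 against BCR-ABL1. Without BCR-ABL1 line 4 these became -0.47 (adjusted p = 0.0483) and 0.65 (0.015), and without MSCV line 2 they became -0.45 (0.0329) and 0.48 (0.0188). With all lines kept, the difference of Srebf2 between the fusions was also called with DESeq2 (0.48, adjusted p = 0.0402), in a fit of the 8 libraries compared (0.49, 0.0331), without the filter on low counts (0.51, 0.0376) and without normalization factors (0.55, 0.0303). Scap ranged over 50.2 to 67.2 CPM in SFPQ-ABL1 lines, 46.5 to 56.4 CPM in BCR-ABL1 lines and 48.5 to 68.1 CPM in MSCV lines, with all groups overlapping.

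Insig1 and Insig2, which both retain SCAP in the endoplasmic reticulum, went opposite ways between the fusions. Insig1 (ENSMUSG00000045294, chr5:28071363-28078662, plus strand) had 63.4, 61.1, 61.4 and 71.1 CPM in SFPQ-ABL1 lines 1 to 4, 29.6, 23.5, 23.05 and 33.7 in BCR-ABL1 lines and 75.8, 50.7, 55.97 and 71.8 in MSCV lines. All BCR-ABL1 lines were below all other lines, with a log2 fold change of -1.21 ± 0.15 (adjusted p = 0.000105) in BCR-ABL1 against MSCV. It was 0.02 ± 0.15 (adjusted p = 0.97) for SFPQ-ABL1 over MSCV and 1.23 ± 0.15 (adjusted p = 0.000208) for SFPQ-ABL1 over BCR-ABL1. Insig2 (ENSMUSG00000003721, chr1:121304353-121332589, minus strand) had 24.9, 41.6, 34.1 and 36.8 CPM in SFPQ-ABL1 lines 1 to 4, 37.1, 68.7, 61.2 and 56.98 in BCR-ABL1 lines and 30.1, 45.6, 45.9 and 41.3 in MSCV lines. Line 1 was the lowest line of each group for Insig2, BCR-ABL1 lines 2 to 4 were above all other lines, and BCR-ABL1 line 1 overlapped both other groups. Insig2 had a log2 fold change of -0.70 ± 0.20 (adjusted p = 0.0209) in SFPQ-ABL1 against BCR-ABL1 and 0.46 ± 0.20 (adjusted p = 0.0953) in BCR-ABL1 against MSCV. The call between the fusions was lost without SFPQ-ABL1 line 1 or 3 and without BCR-ABL1 line 2 or 3 (adjusted p 0.0506 to 0.0626). Without BCR-ABL1 line 1 the change against MSCV was 0.61 (adjusted p = 0.0204). Per kilobase of exon, Insig1 had 20.8, 8.88 and 20.5 CPM in SFPQ-ABL1, BCR-ABL1 and MSCV lines, and Insig2 had 9.90, 16.1 and 11.7 CPM, so that Insig2 was above Insig1 in BCR-ABL1 and below it in both other groups. Stard4, a carrier of cholesterol between membranes, ranged over 211 to 236 CPM in SFPQ-ABL1 lines, 186 to 228 CPM in BCR-ABL1 lines and 179.5 to 247 CPM in MSCV lines, with all groups overlapping. Over the 6 regulators 0 were called in SFPQ-ABL1 against MSCV by edgeR's quasi-likelihood test, DESeq2 or limma-voom, and 0 had an unadjusted p under 0.05.

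Srebf1 has alternative first exons, used by the SREBP-1a form upstream and by the SREBP-1c form downstream, the form that LXR and insulin induce in liver. On mm10 the first exon of the 1a form lies at chr11:60220453-60220604 and that of the 1c form at chr11:60210336-60210465, both on the minus strand. The 250 bases before the RefSeq starts of both forms are printed 5′ to 3′ with CCAAT in capitals, since the forms differ in where they start; the upstream window holds no match and the downstream window holds 1, which begins 30 bases before the start. The table holds a further window of Srebf1 upstream of both, at chr11:60222582-60222831, with 1 match that begins 166 bases before its start.
Srebf1, chr11:60220628-60220877, minus strand: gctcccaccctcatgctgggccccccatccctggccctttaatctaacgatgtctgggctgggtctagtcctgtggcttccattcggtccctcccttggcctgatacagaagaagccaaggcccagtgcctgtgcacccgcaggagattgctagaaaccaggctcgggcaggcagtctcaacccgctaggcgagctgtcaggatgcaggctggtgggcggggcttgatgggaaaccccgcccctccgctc
Srebf1, chr11:60210472-60210721, minus strand: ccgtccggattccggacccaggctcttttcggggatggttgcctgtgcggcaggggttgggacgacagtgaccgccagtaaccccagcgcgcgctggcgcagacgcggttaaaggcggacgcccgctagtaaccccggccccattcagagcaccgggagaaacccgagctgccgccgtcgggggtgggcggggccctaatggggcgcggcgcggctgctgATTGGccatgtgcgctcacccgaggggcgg
The exon table, which holds a subset of the reads, gave 9, 21, 22 and 19 counts to the 1a exon in SFPQ-ABL1 lines 1 to 4, 11, 17, 18 and 15 counts in BCR-ABL1 lines and 18, 17, 23 and 18 counts in MSCV lines. The 1c exon had 0, 1, 0 and 0 counts in SFPQ-ABL1 lines, 0, 0, 0 and 1 counts in BCR-ABL1 lines and 3, 1, 4 and 5 counts in MSCV lines. As a share of the counts on both exons, pooled over the lines of a group, the 1c exon held 1.39% (1 of 72, exact Clopper-Pearson 95% interval 0.0352% to 7.50%) in SFPQ-ABL1, 1.61% (1 of 62, 0.0408% to 8.66%) in BCR-ABL1 and 14.6% (13 of 89, 8.01% to 23.7%) in MSCV. These intervals cover counting error only, and the reads of a library are not independent molecules. The exact two-sided permutation test over lines, scaled by gene totals, gave p = 0.0286 for the 1c exon in SFPQ-ABL1 against MSCV and p = 0.0571 in BCR-ABL1 against MSCV, where 0.0286 is the smallest value that 4 against 4 lines allow. Adjusted over the 6 tests of both exons, both were 0.171. A single test at that smallest value cannot pass this adjustment, so the adjusted values decide nothing about the 1c exon. The 1a exon did not pass in any comparison, with exact permutation p from 0.229 to 0.914.

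The 3 LXR targets did not move together. Abca1 (ENSMUSG00000015243, chr4:53030787-53159895, minus strand), a transporter that exports cholesterol to apolipoproteins, had 37.2, 65.00, 47.8 and 43.2 CPM in SFPQ-ABL1 lines 1 to 4, 26.5, 34.8, 16.6 and 18.9 in BCR-ABL1 lines and 84.5, 108, 56.01 and 72.9 in MSCV lines. No BCR-ABL1 line overlapped another group, and SFPQ-ABL1 line 2 alone lay within the MSCV lines. The log2 fold change was -1.73 ± 0.26 (adjusted p = 0.000332) in BCR-ABL1 against MSCV, the largest in size among the 36 genes in that comparison. SFPQ-ABL1 differed from MSCV by -0.73 ± 0.25 (adjusted p = 0.143) and from BCR-ABL1 by 1.0 ± 0.25 (adjusted p = 0.0118). Without SFPQ-ABL1 line 2 and BCR-ABL1 line 4 together, the difference between the fusions was 0.72 (adjusted p = 0.0755). Mylip, the ubiquitin ligase that sends lipoprotein receptors to degradation, had 11.9, 11.5, 14.6 and 14.1 CPM in SFPQ-ABL1 lines 1 to 4, 9.29, 8.13, 7.26 and 7.42 in BCR-ABL1 lines and 14.7, 16.1, 15.1 and 17.7 in MSCV lines. Its groups were ordered MSCV, SFPQ-ABL1 and BCR-ABL1 with no overlap, and BCR-ABL1 differed from MSCV by -0.99 ± 0.12 (adjusted p = 0.000105) on the log2 scale. SFPQ-ABL1 differed from MSCV by -0.29 ± 0.12 (adjusted p = 0.225) and from BCR-ABL1 by 0.70 ± 0.12 (adjusted p = 0.00144). Abcg1 (ENSMUSG00000024030, chr17:31057675-31117988, plus strand), a transporter that exports cholesterol to lipoproteins, had 56.6, 48.3, 74.1 and 60.5 CPM in SFPQ-ABL1 lines 1 to 4, 47.1, 55.4, 57.5 and 44.9 in BCR-ABL1 lines and 37.7, 39.6, 30.2 and 32.97 in MSCV lines. Every line of both fusion groups lay above every MSCV line. Its log2 fold change was 0.55 ± 0.14 (adjusted p = 0.00816) in BCR-ABL1 against MSCV. For SFPQ-ABL1 the log2 fold change was 0.77 ± 0.14 (adjusted p = 0.0191) over MSCV and 0.22 ± 0.14 (adjusted p = 0.242) over BCR-ABL1. The rise in SFPQ-ABL1 was not called without MSCV line 3 or 4 or SFPQ-ABL1 line 4 (adjusted p 0.055 to 0.0667).

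Over all 36 genes, 18 were lower in BCR-ABL1 than in MSCV, higher in SFPQ-ABL1 than in BCR-ABL1 and not called in SFPQ-ABL1 against MSCV, and 9 were called in no comparison by edgeR's quasi-likelihood test. DESeq2 called 2 of those 9, Tm7sf2 in BCR-ABL1 against MSCV and Srebf2 between the fusions, and it called Lss and Nsdhl higher in SFPQ-ABL1 than in MSCV. The lines of BCR-ABL1 and MSCV did not overlap for 21 genes, beside 31.6% of all genes tested, with 20 lower (15.9% of all genes) and 1 higher (15.7%). Those of SFPQ-ABL1 and MSCV did not overlap for 6 genes, beside 11.2%, with 4 higher (5% of all genes) and 2 lower (6.24%). Between SFPQ-ABL1 and BCR-ABL1 they did not overlap for 20 genes, beside 27.9%, and all 20 were higher (13.9% of all genes). Counts on exons that no other annotated gene overlaps went the same way as the gene counts for all 22 calls in BCR-ABL1 and both calls in SFPQ-ABL1 against MSCV, and for all 24 calls between the fusions. The exon counts are a subset of the reads of the same libraries and only calls were compared, so this agreement is no independent check. Leaving out overlapped exons also does not remove reads shared with copies or pseudogenes elsewhere. Some groups that were apart in the gene counts overlapped on those exons. These were BCR-ABL1 and MSCV for Mvd, Lss, Nsdhl, Elovl6, Scd1 and Scd2, and SFPQ-ABL1 and BCR-ABL1 for Ebp. SFPQ-ABL1 and MSCV overlapped there for Acat2, Sqle, Lss, Tm7sf2 and Mylip. Per kilobase of exon, Scd2, Fads2, Fads1 and Acly held the first 4 places of the 36 in every group, and Idi1 held place 10 in SFPQ-ABL1, 22 in BCR-ABL1 and 13 in MSCV.

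Other genes of the pathway were taken from a list of 25, of which 24 passed the filter. In BCR-ABL1 against MSCV 7 of them rose and 3 fell (41.7% called), beside 32.1% of all genes called, 15.8% higher and 16.3% lower. In SFPQ-ABL1 against BCR-ABL1 2 were higher and 5 lower (29.2% called), near the 26% of all genes called there. The median log2 fold changes of the list were -0.02 and 0.0006, near those of all genes (-0.01 and 0.01). In SFPQ-ABL1 against MSCV 0 were called by edgeR's quasi-likelihood test, DESeq2 or limma-voom. There 2 were under an unadjusted p of 0.05 in edgeR, beside 3194 of all 17197 genes. Lpcat3, an LXR target that puts polyunsaturated chains into phospholipids, had a log2 fold change of -0.57 ± 0.11 (adjusted p = 0.00199) in BCR-ABL1 against MSCV, and Tecr, the last reductase of fatty acid elongation, had -0.48 ± 0.10 (adjusted p = 0.00252). Both were higher in SFPQ-ABL1 than in BCR-ABL1, by 0.59 ± 0.11 (adjusted p = 0.00235) and 0.38 ± 0.10 (adjusted p = 0.0117). Nr1h2, which encodes one of the LXR proteins, was lower in BCR-ABL1 than in MSCV, with a log2 fold change of -0.41 ± 0.08 (adjusted p = 0.00251), and ranged over 71.4 to 79.4 CPM in SFPQ-ABL1 lines, 61.1 to 70.98 CPM in BCR-ABL1 lines and 82.2 to 98.9 CPM in MSCV lines. Nr1h3, the gene of the second LXR protein, stayed below 1 CPM in every line.

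The genes that rose in BCR-ABL1 against MSCV included a protease of SREBP activation, enzymes that esterify cholesterol and a partner of INSIG in protein degradation. Mbtps2, the protease that makes the final cut of SREBP in the Golgi, had 40.95, 40.8, 41.5 and 45.2 CPM in SFPQ-ABL1 lines 1 to 4, 64.6, 83.3, 76.8 and 79.4 in BCR-ABL1 lines and 35.8, 27.7, 40.3 and 40.4 in MSCV lines. Every BCR-ABL1 line was above every other line, with log2 fold changes of 1.08 ± 0.12 (adjusted p = 5.45e-05) against MSCV and -0.85 ± 0.12 (adjusted p = 0.000401) in SFPQ-ABL1 against BCR-ABL1. Soat2, which esterifies cholesterol for storage, had 17.1, 21.005, 29.4 and 37.2 CPM in SFPQ-ABL1 lines 1 to 4, 46.1, 62.7, 58.3 and 93.9 in BCR-ABL1 lines and 31.4, 12.3, 30.7 and 32.2 in MSCV lines. BCR-ABL1 lines were again above all others, by 1.29 ± 0.32 (adjusted p = 0.00755) over MSCV, and the difference between SFPQ-ABL1 and BCR-ABL1 was -1.32 ± 0.32 (adjusted p = 0.00899). Erlin1, a membrane protein of sterol-controlled degradation, had 33.1, 31.3, 32.9 and 33.2 CPM in SFPQ-ABL1 lines 1 to 4, 40.96, 48.00, 47.2 and 57.1 in BCR-ABL1 lines and 32.8, 28.1, 34.4 and 31.5 in MSCV lines, with 0.61 ± 0.10 (adjusted p = 0.000743) and -0.57 ± 0.10 (adjusted p = 0.00174) in the same comparisons. Hsd17b12, the reductase of fatty acid elongation, had log2 fold changes of 0.76 ± 0.15 (adjusted p = 0.00204) and -0.44 ± 0.15 (adjusted p = 0.045), with SFPQ-ABL1 line 2 reaching the BCR-ABL1 lines.

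**Figure D5:**
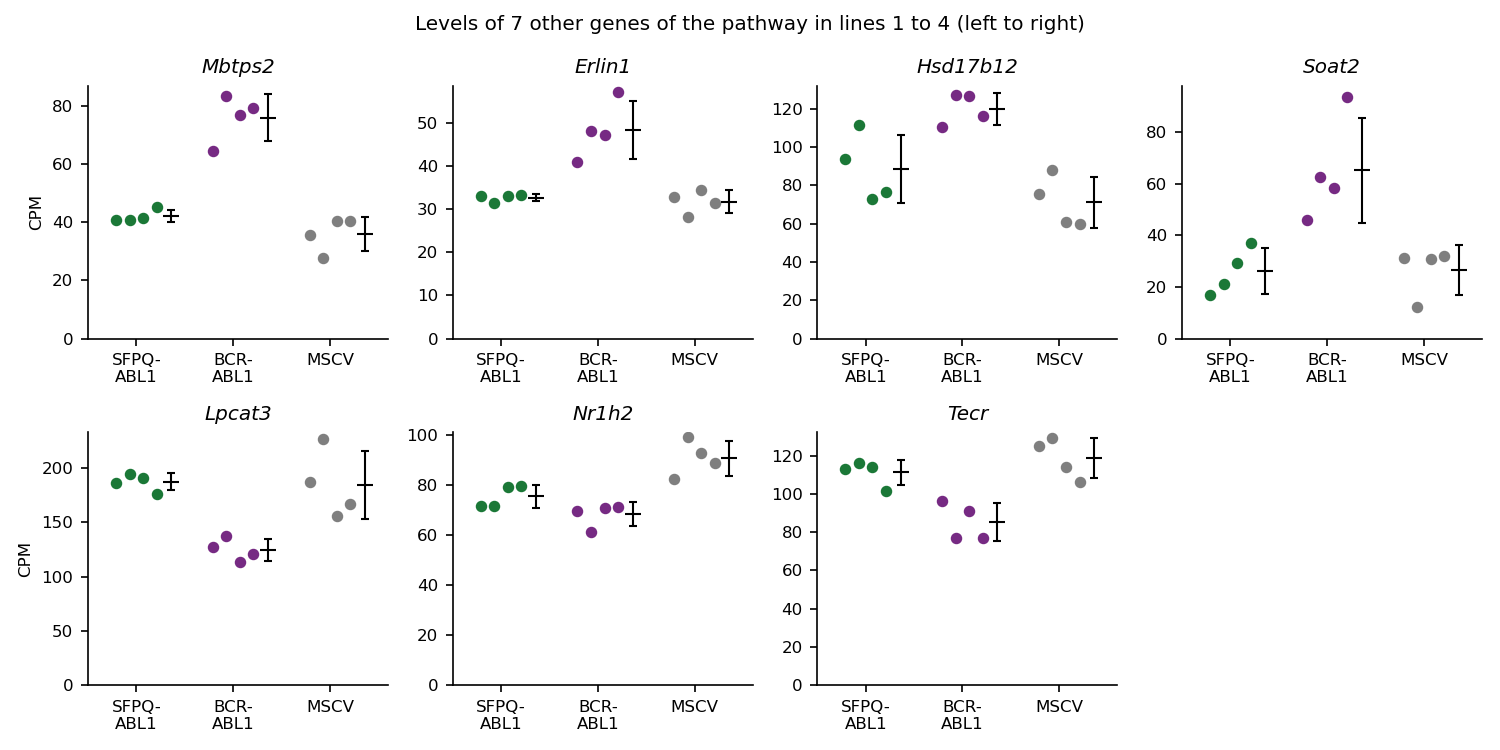
Level (y axis, CPM, from 0) of 7 other genes of the pathway in each line of the 3 groups (x axis); black marks are the mean ± SD of 4 lines. Mbtps2, Erlin1 and Soat2 lie highest in all BCR-ABL1 lines, and Lpcat3 and Tecr lie lowest there.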

How the data were processed

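RNA sequencing of 12 libraries of Ba/F3 cells was analysed from raw counts per Ensembl gene and per Ensembl exon, which the authors deposited without normalization. Subread and featureCounts on mm10 are named in the submitters' processing notes, whereas versions, annotation release and strand setting were not stated there, in the labels or in the file headers. Symbols and exons came from GENCODE M21 on mm10, and promoters from RefSeq tables of GRCm38.p6. Genes were filtered with filterByExpr and scaled by TMM in edgeR 4.0.16 (R 4.3.3), and 1 quasi-likelihood fit of group alone over the 12 libraries gave the 3 comparisons, adjusted by Benjamini-Hochberg. The test was first run on simulated data. CPM are scaled by TMM, and exon values by gene totals. A gene was called at an adjusted p under 0.05. DESeq2 1.42.0 and limma 3.58.1 were alternatives. All 36 genes are named, with values per line for those called, and up to 4 other genes of the pathway per direction and comparison by smallest adjusted p. The genes and lists were chosen with earlier results of these data known. From the lists of other pathway genes and of pro-B markers, 1 gene each is not reported here. P-values measure the spread between lines, and counts are reads without molecular identifiers.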

Additional observations from a re-analysis of the deposited data

Results flagged for a closer look

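A line far from its 3 sister lines, by the gap to the nearest of them over the range of the group, was found in 7 of 108 groups of 4 lines (36 genes in 3 groups), and chance flags about 1 in 20. MSCV line 2 was involved 3 times. It was the highest MSCV line for Mvk, with 21.1 CPM beside 14.9 to 15.9 CPM in its sister lines. It was the lowest for Mvd, with 30.6 CPM beside 37.8 to 39.1 CPM, and for Fdft1, with 30.6 CPM beside 38.5 to 39.7 CPM. BCR-ABL1 line 2 was the lowest of its group for Fads2, with 119 CPM beside 165 to 173 CPM, and for Scap, with 46.5 CPM beside 54.9 to 56.4 CPM. SFPQ-ABL1 line 2 was low for Msmo1, with 50.7 CPM beside 77.8 to 79.6 CPM. SFPQ-ABL1 line 4 was low for Fads2, with 275 CPM beside 305 to 310.0 CPM.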

How the results depend on the processing

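Of 960 repeats of the 48 called log2 fold changes of the 36 genes under alternative settings, 898 kept direction and call, 62 kept direction and lost the call, and 0 turned, while the cause of each loss was not tested. Some repeats left out a line of the group outside a comparison, which bears on that comparison only through the fit they share. Among those repeats only the call of Sc5d between the fusions was lost. Under every alternative run, 16 of 22 calls of BCR-ABL1 against MSCV, 0 of 2 of SFPQ-ABL1 against MSCV and 19 of 24 of SFPQ-ABL1 against BCR-ABL1 were kept. Leaving out 1 library at a time, the 36 genes gave 15 to 22 lower and 1 to 2 higher calls in BCR-ABL1 against MSCV, 0 to 3 higher and 0 to 1 lower in SFPQ-ABL1 against MSCV, and 20 to 24 higher and 0 to 1 lower in SFPQ-ABL1 against BCR-ABL1. Over all genes, SFPQ-ABL1 against MSCV gave 33 calls (without MSCV line 3) to 467 calls (without SFPQ-ABL1 line 2), in place of 308. That count was 1131 with DESeq2, which called 4 of the 36 genes higher, 110 in a fit of the 8 libraries compared, and 498 without SFPQ-ABL1 line 2 and BCR-ABL1 line 4, where 1 of the 36 (Elovl6) was called lower. That last setting was chosen after seeing the data.

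The replicate numbers are not shown to pair the lines: same-numbered lines correlated in their deviations by -0.00632 to 0.385, with a median of 0.2 and 7 of 12 above 0.1, beside a median of -0.0791 and 6 of 36 above 0.1 for differently numbered lines, and in 12 of 24 pairings of a line with another group the line correlated best with its own number. These values are a hint from the data, not the design, and 5 of the 12 same-numbered correlations were 0.1 or less. Deviations were taken from the group means, so correlations of same-numbered and of differently numbered lines are not independent. In each of the 24 pairings a line had the 4 lines of the other group as candidates. With the replicate number as a block, 726 genes were called in SFPQ-ABL1 against MSCV, with 5 of the 36 higher and 1 lower, and 3 of the 36 were higher in BCR-ABL1 against MSCV. The block ended no call among the 36. It added Insig2 (0.44, adjusted p = 0.00175), Hsd17b7 (0.29, 0.0499) and Fdft1 (-0.30, 0.0397) in BCR-ABL1 against MSCV, Abca1 (-0.71, 0.027), Idi1 (0.53, 0.0375), Hsd17b7 (0.51, 0.0264) and Nsdhl (0.52, 0.024) in SFPQ-ABL1 against MSCV, and Srebf2 (0.51, 0.0231) between the fusions, each a log2 fold change and edgeR adjusted p. Scaled by exon totals in place of gene totals, the mean difference of the Srebf1 1a exon in SFPQ-ABL1 against MSCV turned to 0.022 from -0.0072 CPM, with an exact permutation p of 0.914 in both.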
